A study of Mus musculus with 2 samples.

Results

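Early KIT-positive differentiating spermatogonia are the germ cells that have just switched on the receptor KIT and left the undifferentiated pool. They were chosen here by their transcripts. A cell had at least 1000 unique molecular identifiers (UMIs, each one captured transcript), at least 500 genes and at most 20% mitochondrial UMIs. It also had at least 3 UMIs of the germ cell genes Ddx4 and Dazl together, at least 2 of Kit, at most 1 of Gfra1 and fewer than 2 of Esx1 and Dmrtb1 together. Per 10000 UMIs it held fewer than 10 of Stra8, fewer than 20 of Sycp1 and fewer than 10 of the Sertoli cell genes Aard, Cst9, Cst12 and Sox9 together. This rule gave 528 cells of 22096 in all, 29 of 10864 in the knockout library and 499 of 11232 in the control library.

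Cells of the whole testis of C57BL/6 mice, 13 days old, were profiled singly by RNA-seq with 10x 3' V3 chemistry. The knockout (Psma7 F/-;Stra8-Cre KI/+) carried a floxed and a deleted copy of Psma7 with a Cre placed at the Stra8 locus, which acts in germ cells. The control (Psma7 F/+) carried a floxed and an intact copy, and its label names no Cre. The floxed exons and the number of animals behind each library are not given in the sources used here. Each genotype has 1 library, so differences between them could be neither tested nor checked against replicates. All 95% intervals cover counting error only. Free RNA, cell capture, animals and the spread between the cells of a gate add error that they do not hold. An interval is thus too narrow for a gene with most of its UMIs in 1 cell.

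KIT is the receptor of stem cell factor, which Sertoli cells make, and signals through phosphoinositide 3-kinase and AKT. Retinoic acid drives the step from undifferentiated to KIT-positive spermatogonia, after which the cells divide several times, change their DNA methylation and enter meiosis. The 20S proteasome is the barrel that breaks down ubiquitin-tagged proteins. PSMA7 is α4, a subunit of its outer rings, and PSMA8 is the related α4s of the germ cell proteasome.

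The knockout held far fewer of these cells. They made up 0.267% of the knockout's cells (95% Clopper-Pearson interval 0.179 to 0.383) and 4.44% of the control's (4.07 to 4.84). Per 100 Sertoli cells, the nurse cells of the tubule, there were 0.405 in the knockout and 12.7 in the control. The knockout ratio was 31.3-fold lower, with an interval of 21.5 to 47.4. Within the germ cells the gap was narrower, 8.73% of 332 germ cells in the knockout (5.93 to 12.3) and 13.8% of 3611 in the control (12.7 to 15.0). Fewer such cells in the testis and poorer capture from the suspension cannot be told apart here.

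The neighbouring gates, set with the same quality, germ cell and Sertoli limits, place the cells within the series of spermatogonia. GFRA1-positive cells (at least 2 Gfra1 UMIs, at most 1 of Kit) numbered 166 in the knockout and 234 in the control. Progenitors (at most 1 UMI of each, and at least 3 of Sall4, Zbtb16, Nanos3, Sox3 and Utf1 together) numbered 61 and 271. Beyond the early KIT-positive cells, the late gate (at least 2 UMIs of Esx1 and Dmrtb1 together, at most 1 of Gfra1) held 15 and 1317 cells, and the STRA8-high gate (at least 10 Stra8 UMIs per 10000) held 2 and 471. Per 100 progenitors there were 47.5 early KIT-positive cells in the knockout and 184 in the control, a 3.87-fold lower ratio (2.38 to 6.4). Progenitors per 100 GFRA1-positive cells stood at 36.7 in the knockout and 116 in the control, 3.15-fold lower (2.21 to 4.51). Late cells per 100 early KIT-positive cells stood at 51.7 in the knockout and 264 in the control, 5.10-fold lower (2.62 to 10.3). The intervals of these 3 ratios overlap, and whether one step differs from another was not tested.

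**Figure D1:**
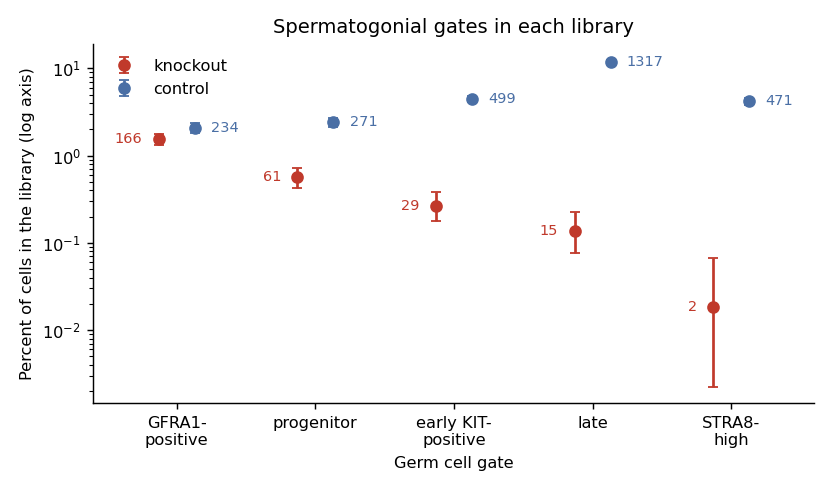
Share of each library's cells in 5 germ cell gates, in percent on a log axis, with exact 95% intervals and the number of cells beside each point. Knockout points descend through the series, with early KIT-positive cells at 0.267%, while control points climb to the late gate, with early KIT-positive cells at 4.44%.

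The knockout cells were few and somewhat deeper. The median was 21401 UMIs and 6943 genes per knockout cell and 18337 UMIs and 6150 genes per control cell. The summed UMIs behind every level were 685138 in the knockout and 10082247 in the control, so the knockout sets the width of each interval. Mitochondrial UMIs had a median of 4.15% in the knockout and 8.06% in the control. No barcode was an early KIT-positive cell in both libraries, although 29 barcodes were cells in both and 2 of the control's early KIT-positive cells shared theirs with some knockout cell.

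The cells were checked against the 5 given markers, of which Kit is in the rule. The others are Crabp1, which encodes a retinoic acid binding protein, Rims1, which encodes a vesicle release protein, Reln, which encodes the secreted protein reelin, and Sohlh1, which encodes a transcription factor of spermatogonial differentiation. In mm10 with GENCODE M21, Kit spans chr5:75574916-75656722 on the plus strand. Crabp1 spans chr9:54764748-54773110 on the plus strand. Rims1 spans chr1:22286251-22805994, Reln chr5:21884454-22344702 and Sohlh1 chr2:25842995-25847248, all on the minus strand. The median cell had 17 UMIs of the 4 markers outside the rule in the knockout and 15 in the control. However, 2 of the 29 knockout cells and 10 of the 499 control cells had none of them.

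Markers of other testis cells were present in a minority of cells. A set of 35 markers of Leydig, stromal and myoid, endothelial and pericyte, and macrophage cells reached at least 10 UMIs per 10000 in 4 knockout cells (13.8%) and 26 control cells (5.21%). These cells, called somatic-rich below, held 20.5% of the knockout's UMIs and 8.02% of the control's. Both knockout cells without the 4 markers were among them, against 2 of the 10 in the control. The summed Leydig markers stood at 419 counts per 1000000 UMIs (CPM) in the knockout and 71.0 CPM in the control over all cells, and at 23.9 and 37.7 CPM once somatic-rich cells were left out. Of the 9 Leydig markers, Hsd3b1 was at 0 in the knockout and none was at 0 in the control. Stromal and myoid markers, all 10 of which had UMIs on both sides, summed to 1457 CPM in the knockout and 466 CPM in the control over all cells, and to 163 and 104 CPM without the somatic-rich ones. The 8 endothelial and pericyte markers summed to 59.8 CPM in the knockout, with Emcn and Rgs5 at 0, and to 97.2 CPM in the control, or 73.4 and 36.9 CPM without the somatic-rich cells. The 8 macrophage markers summed to 36.5 CPM in the knockout, with C1qa, C1qb and Adgre1 at 0, and to 22.1 CPM in the control. Of 5 erythroid markers, Hba-a1 and Hba-a2 were at 0 in the knockout, where the list summed to 7.3 CPM, and Hbb-bt was at 0 in the control, where it summed to 1.98 CPM. The 16 Sertoli markers outside the rule summed to 563 CPM in the knockout, with Ptgds and Rhox5 at 0, and to 287 CPM in the control, or 294 and 252 CPM without the somatic-rich cells. Results are therefore given over all 29 knockout and 499 control cells and over the 25 and 473 that remain, called somatic-poor. The name does not cover Sertoli markers, which are not among the 35. Their highest somatic-poor cell had 11.5 per 10000 UMIs in the knockout and 37.0 in the control. The summed marker levels of the somatic-poor cells fit the label, although Reln and Sohlh1 were higher still in the control's progenitors, as given below. Not every cell fits it, since the 8 other control cells with none of the 4 markers are somatic-poor.

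**Figure D2:**
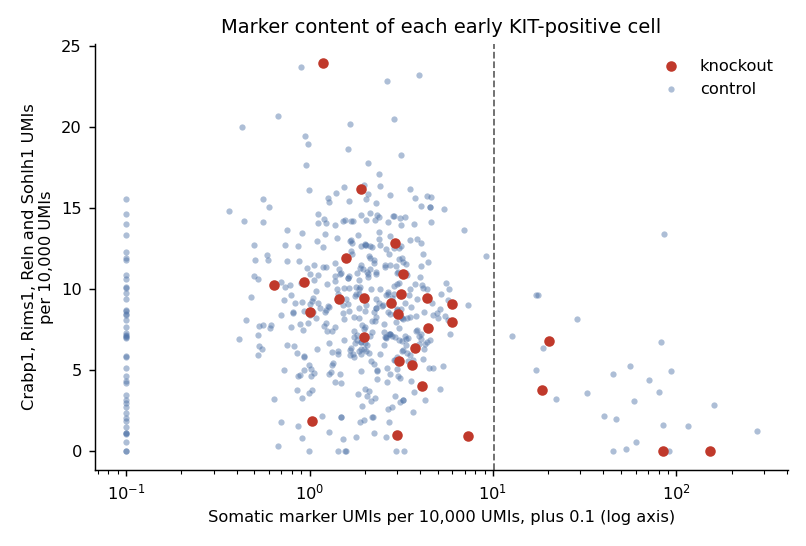
Each point is 1 early KIT-positive cell: UMIs of the 35 somatic markers per 10000 UMIs on a log axis (a small constant added so that 0 can be drawn) against UMIs of Crabp1, Rims1, Reln and Sohlh1 per 10000 UMIs. The dashed line marks 10 per 10000; 4 knockout and 26 control cells lie to its right, 2 of the knockout cells at 0 on the vertical axis.

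Psma7 (ENSMUSG00000027566, chr2:180036374-180042433, minus strand), the targeted gene, was low in the knockout's cells. It had 37 UMIs (54.0 CPM) in the knockout and 2534 UMIs (251 CPM) in the control over all cells, a log2 ratio of -2.20 (-2.73 to -1.75). In the somatic-poor cells it had 21 UMIs (38.6 CPM) in the knockout and 2288 UMIs (247 CPM) in the control, a log2 ratio of -2.64 (-3.37 to -2.06). The knockout's 21 UMIs came from 14 of 25 cells, with at most 3 in a cell. Whether the counted 3' ends lie within the deleted part is not known, so the level checks the label without measuring the deletion. Psma8 had 32 UMIs (58.8 CPM) in the knockout and 391 UMIs (42.2 CPM) in the control, a log2 ratio of 0.50 with an interval of -0.09 to 1.00 that spans 0.

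Across the gates, without somatic-rich cells, Psma7 stood at 39.2% of the control level in GFRA1-positive cells, 35.9% in progenitors, 15.6% in early KIT-positive cells and 16.8% in late cells. In Sertoli cells, which carry the deleted copy by genotype, it stood at 38.5%. The log2 ratio was -2.64 in early KIT-positive cells against -1.47 (-1.86 to -1.12) in progenitors, intervals that do not overlap. Over all cells the values were -2.20 (-2.73 to -1.75) and -1.51 (-1.87 to -1.18), and those intervals do. Thinned to 5000 UMIs, Psma7 stood at -1.42 in early KIT-positive cells, on 8 knockout cells. No thinned value is given for progenitors, so whether the gates differ at that depth was not tested. The intervals of the 2 gates, which cover counting error only, thus stay apart on the somatic-poor cells only, where early KIT-positive knockout cells had 21 UMIs. Whether the gates differ was not tested. In the knockout Psma7 had 92.7, 95.2, 38.6 and 46.5 CPM along the 4 gates, and in the control 236, 265, 247 and 278 CPM.

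**Figure D3:**
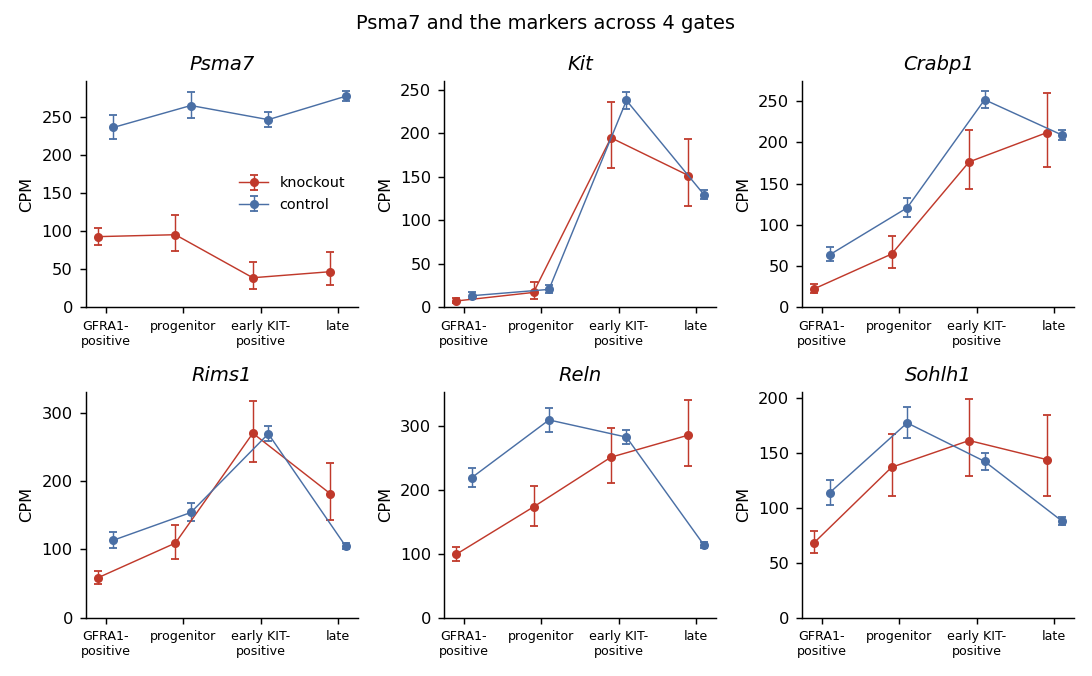
CPM of Psma7 and the 5 markers along 4 gates in knockout and control, somatic-rich cells left out, with exact 95% Poisson intervals. Knockout Psma7 lies below the control in every gate and is 38.6 CPM in early KIT-positive cells; Crabp1, Rims1, Reln and Sohlh1 differ by a smaller ratio there than in the GFRA1-positive gate.

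Of the marker genes outside the rule, Rims1 and Sohlh1 had intervals that span 0 on both sets of cells, while Crabp1 was lower on both and Reln on one. Rims1 had 147 UMIs (270 CPM) in somatic-poor knockout cells and 2495 UMIs (269 CPM) in the control, a log2 ratio of 0.01 (-0.25 to 0.25). Reln had 252 CPM in the knockout and 283 CPM in the control, and Sohlh1 had 162 and 143 CPM, with intervals that span 0. Over all cells Reln had 206 CPM in the knockout and 271 CPM in the control (-0.39, -0.65 to -0.15). Crabp1 was lower, 176 CPM in the knockout and 252 CPM in the control (-0.51, -0.82 to -0.22). With every cell thinned to 5000 UMIs before the rule was applied, which leaves 8 knockout and 208 control cells, Crabp1 stood at 0.043 and Reln at 0.0033. The 0.5 UMIs added to each count lifts both values on 40000 knockout UMIs, so neither shows a higher level. In GFRA1-positive cells Rims1 had 58.4 CPM in the knockout and 113 CPM in the control, and Reln 99.3 and 219 CPM. In progenitors Reln had 174 CPM in the knockout and 310 CPM in the control, and Sohlh1 137 and 178 CPM. For these genes the control's progenitors lay above its early KIT-positive cells and the knockout's lay below. Crabp1 and Rims1 were lower in progenitors than in early KIT-positive cells in both libraries. In the late gate the order turned, with Reln at 286 CPM in the knockout and 114 CPM in the control and Rims1 at 181 and 105 CPM. That gate holds only 15 knockout cells.

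All measured genes give the background for the lists that follow. A gene was measured with at least 30 UMIs over both libraries, which 14470 genes had over all cells and 13962 in the somatic-poor ones. Over all cells 9.03% of them were at least 2-fold higher in the knockout and 4.95% at least 2-fold lower, and 54.7% had a ratio above 0 and 45.3% below. Among somatic-poor cells 7.66% were at least 2-fold higher and 5.27% lower, and 56.9% lay above 0 and 43.1% below. The median gene had a log2 ratio of 0.05 over all cells and 0.09 over the somatic-poor ones. Genes of the rule were left out of the list counts, and values of single genes are from somatic-poor cells unless stated.

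Of 14 genes typical of the KIT-positive stage, all measured, 1 was at least 2-fold lower and none higher, on either set of cells. Their median log2 ratio was -0.40 over all cells and -0.18 over the somatic-poor ones, and 13 and 9 of the 14 were below 0. Thinned to 5000 UMIs the median was 0.023. The gene past 2-fold was Prss50, a testis protease, with 2 UMIs in the knockout and 178 UMIs in the control (3.67 and 19.2 CPM, -2.07, -5.44 to -0.51). Prss50 reached 200 CPM in the control's late gate and 2.33 CPM in the knockout's. Dnmt3b, a de novo DNA methyltransferase that comes up with KIT, had 71.6 CPM in the knockout and 130 CPM in the control (-0.84, -1.36 to -0.40), and 0.25 when thinned. Ccnd2, a D-type cyclin that retinoic acid induces, was higher, with 141 CPM in the knockout and 99.2 CPM in the control (0.52, 0.16 to 0.85). This was not particular to the stage. Ccnd2 was highest in GFRA1-positive cells, with 314 CPM in the knockout and 229 CPM in the control. It was also above the control in progenitors, late cells and Sertoli cells, the last at 208 and 127 CPM over all cells. Dmrt1, a regulator of the entry into meiosis, had 450 CPM in the knockout and 432 CPM in the control, and Sohlh2, the partner of Sohlh1, had 51.4 and 53.2 CPM, both with intervals that span 0.

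The wider list of DNA methylation genes held no large difference. None of 13 measured members of 14 was past 2-fold, with medians of -0.20 over all cells and -0.12 over the somatic-poor ones. Dnmt3a had 45.9 CPM in the knockout and 69.0 CPM in the control (-0.56, -1.23 to -0.01), and the maintenance enzyme Dnmt1 had 154 and 202 CPM (-0.38, -0.73 to -0.08).

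The piRNA genes, which silence transposons in germ cells, had 18 measured members of 19, with 2 at least 2-fold lower and none higher on either set of cells. Their medians were -0.37 and -0.22. The 2 were Pld6, a mitochondrial nuclease of piRNA formation, with 7 UMIs in the knockout and 286 UMIs in the control (-1.17, -2.59 to -0.20), and Piwil4, with 3 and 127 UMIs (-1.10, -3.61 to 0.27). Pnldc1, the piRNA trimmer, had 55.1 CPM in the knockout and 102 CPM in the control (-0.86, -1.46 to -0.36), and Gtsf1 had 147 and 112 CPM (0.40, 0.04 to 0.72), against 0.23 (-0.11 to 0.54) over all cells.

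Some genes of the undifferentiated state stood higher in the knockout's cells and others lower. Of 23 members 18 were measured, and the counts past 2-fold were 5 higher and 3 lower on both sets of cells, with medians of 0.01 and 0.17. Without the knockout cell with most UMIs of each gene, 1 and 2 of the 5 stayed 2-fold higher. Etv5 and Id4, transcriptional regulators of the stem cell state, had 12 and 9 UMIs in the knockout against 74 and 68 UMIs in the control. Their log2 ratios in somatic-poor cells were 1.51 (0.45 to 2.36) for Etv5 and 1.24 (-0.02 to 2.18) for Id4. Glis3, a zinc finger factor of early germ cells, had 198 CPM in the knockout and 72.5 CPM in the control (1.46, 1.15 to 1.75). The RNA-binding protein gene Lin28a had 125 CPM in the knockout and 45.7 CPM in the control (1.46, 1.06 to 1.82), and 0.81 without 1 knockout cell that held 29 of its 68 UMIs. Ret, the co-receptor of GFRA1, was the other higher one, with 6 UMIs in the knockout and 46 UMIs in the control. The lower ones were Utf1 with 1 UMI in the knockout, Upp1 with 2 and Piwil4 with 3, and in somatic-poor cells each had an interval that spans 0. Over all cells Upp1 stood at -1.82 (-5.19 to -0.25) and Piwil4 at -1.37 (-3.89 to -0.01). Zbtb16 and Sall4, widely used markers of undifferentiated cells, had ratios of 0.16 and 0.18 with intervals that span 0.

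Along the gates these genes did not follow 1 course. Id4 was higher in the knockout from the GFRA1-positive to the late gate. It had 99.6 CPM in the knockout and 56.2 CPM in the control in GFRA1-positive cells, and 67.2 and 25.4 CPM in progenitors. Early KIT-positive cells had 16.5 and 7.33 CPM of Id4, and late cells 18.6 and 4.69 CPM. Glis3 instead had 1329 CPM in the knockout and 1423 CPM in the control in GFRA1-positive cells and 602 and 745 CPM in progenitors, and lay above the control from the KIT-positive gate on. Lin28a likewise had 29.4 CPM in the knockout and 51.1 CPM in the control in GFRA1-positive cells, 56.0 and 80.5 CPM in progenitors, and 125 and 45.7 CPM in early KIT-positive cells. Upp1, which encodes uridine phosphorylase, had 16.8 CPM in the knockout and 60.0 CPM in the control in progenitors.

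Genes of meiotic entry were lower as a group. Of 18 measured members, 3 were at least 2-fold lower over all cells and 2 over the somatic-poor ones, and none was 2-fold higher. The medians were -0.44 and -0.37, and 16 and 15 of the 18 were below 0. Mei1, needed for meiotic DNA breaks, had 27 UMIs (49.6 CPM) in the knockout and 1019 UMIs (110 CPM) in the control (-1.12, -1.76 to -0.60). Gm4969, the gene of the meiosis initiator MEIOSIN, had 4 UMIs in the knockout and 221 UMIs in the control (-1.53, -3.59 to -0.32). The synaptonemal complex gene Sycp3 had 127 CPM in the knockout and 201 CPM in the control (-0.66, -1.03 to -0.32), and the meiotic cohesin gene Smc1b had 231 and 325 CPM (-0.48, -0.76 to -0.23). Rec114 and Mei4, partners of the break machinery, were the highest members in somatic-poor cells, at 0.34 and 0.09 with intervals that span 0. Hormad1, a protein of the meiotic chromosome axis, had a ratio of 0.62 over all cells, where 1 knockout cell held 55 of its 80 UMIs, and -0.85 (-1.54 to -0.28) in somatic-poor cells. Stra8, the retinoic acid target whose level the rule limits, had 230 CPM in the knockout and 446 CPM in the control, given as a description only. Thinned, its ratio was 0.40. Only the knockout's label names a Cre, placed at the Stra8 locus itself. What that allele does to the Stra8 counts, the rule's Stra8 limit and the STRA8-high gate was not tested.

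Retinoic acid genes showed no common direction, with 3 of 15 measured members (19 in all) at least 2-fold higher, none 2-fold lower and medians of -0.08 and -0.02 on the 2 sets. Without the top knockout cell of each gene 1 stayed 2-fold higher. The synthesis enzyme Aldh1a1 had 184 CPM in the knockout and 32.7 CPM in the control over all cells, with 84 of the knockout's 126 UMIs in 1 cell, and 25.7 and 12.3 CPM in somatic-poor cells (1.11, 0.15 to 1.87). The retinal reductase Dhrs3 had 5 UMIs in the knockout and 28 UMIs in the control (1.72, -0.13 to 3.0), and -0.02 without 1 cell. The receptor Rara had 36.7 CPM in the knockout and 38.1 CPM in the control, while Rarb had 11.0 and 21.0 CPM with an interval that spans 0.

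KIT signalling genes had medians of -0.01 over all cells and 0.14 over the somatic-poor ones, with 1 of 27 measured members (29 in all) past 2-fold in each direction. Kit itself, which the rule uses, had 195 CPM in the knockout and 238 CPM in the control. Akt1, a kinase downstream of KIT, had 36.7 CPM in the knockout and 59.8 CPM in the control (-0.67, -1.43 to -0.06) and -0.21 over all cells, Mtor had 108 and 164 CPM, and its partner Rptor had 160 and 219 CPM. The catalytic subunit Pik3ca was higher, with 130 CPM in the knockout and 76.6 CPM in the control (0.78, 0.39 to 1.12), as was the adaptor Grb2 with 288 and 208 CPM. Pdk1, a mitochondrial kinase of pyruvate dehydrogenase and not the AKT kinase encoded by Pdpk1, had 82.6 CPM in the knockout and 41.6 CPM in the control (1.00, 0.51 to 1.44). Spry2, an inhibitor of receptor signalling, changed sides between the sets, at 1.85 over all cells and -0.36 with 2 UMIs left in the knockout's somatic-poor cells.

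Genes of G1 and S phase had a median below that of all genes on both sets of cells, and genes of G2 and mitosis had one above it in somatic-poor cells only. Of 30 genes of G1 and S phase, all measured, 25 were below 0 over all cells and 23 over the somatic-poor ones, with medians of -0.27 and -0.16. Cdk6, the partner of D-type cyclins, was the lowest with more than 1 UMI, at 140 CPM in the knockout and 294 CPM in the control (-1.07, -1.42 to -0.75). Rrm1 of deoxynucleotide synthesis had 71.6 CPM in the knockout and 117 CPM in the control (-0.69, -1.20 to -0.24), and the replicative helicase gene Mcm3 had 71.6 and 122 CPM (-0.75, -1.26 to -0.30). E2f2 had 1 UMI in the knockout and 65 UMIs in the control. Of 27 genes of G2 and mitosis, all measured, none was past 2-fold, and 16 were above 0 over all cells and 22 over the somatic-poor ones, with medians of 0.03 and 0.25. Aurka, a spindle kinase, had 77.1 CPM in the knockout and 48.1 CPM in the control (0.70, 0.19 to 1.14), and stood at 0.47 (-0.03 to 0.90) over all cells. Mki67, a label of cycling cells, had 176 CPM in the knockout and 124 CPM in the control (0.51, 0.19 to 0.80), and stood at 0.28 (-0.04 to 0.57) over all cells. Birc5 had 90.0 CPM in the knockout and 111 CPM in the control with an interval that spans 0, and stood at -0.49 (-0.93 to -0.10) over all cells. In the late gate the G2 and mitosis genes summed to 3790 CPM in the knockout and 4727 CPM in the control, against 3872 and 3348 CPM in early KIT-positive cells.

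The proteasome's other subunits stayed near the median gene. Of 32 constitutive subunits, all measured, none was past 2-fold on either set, 21 and 23 were above 0, and the median was 0.10 on both. Psmd7 of the regulatory lid was the highest, with 103 UMIs (189 CPM) in the knockout and 939 UMIs (101 CPM) in the control (0.91, 0.59 to 1.20). Psmd12, also of the lid, had 143 CPM in the knockout and 96.1 CPM in the control (0.58, 0.22 to 0.91). Psma6, an α-ring subunit like PSMA7, had 167 CPM in the knockout and 127 CPM in the control (0.40, 0.07 to 0.70). Psmd2 was the lowest, with 228 CPM in the knockout and 279 CPM in the control (-0.29, -0.56 to -0.03). Psmd7 was also above the control in the gates before, with 313 CPM in the knockout and 262 CPM in the control in GFRA1-positive cells and 406 and 314 CPM in progenitors.

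Special subunits, activators and assembly factors had 17 measured members of 18, of which 15 were above 0 on both sets, with medians of 0.23 and 0.29. The activator Psme4, known from spermatogenesis, had 239 CPM in the knockout and 169 CPM in the control (0.50, 0.23 to 0.75). The assembly chaperone Psmg1 had 62.4 CPM in the knockout and 77.5 CPM in the control with an interval that spans 0. Psmb11, known as a thymus subunit, alone passed 2-fold in somatic-poor cells, at 1.01 (-0.80 to 2.21). It did so only through the 0.5 UMIs added to each count. Its 5 UMIs (9.18 CPM) in the knockout and 46 UMIs (4.96 CPM) in the control are less than 2-fold apart. Psmb11 stood at 0.02 without the knockout cell with most of its UMIs. Ubiquitin and shuttle factors had medians of 0.13 and 0.06 over 24 measured genes, with 2 at least 2-fold higher over all cells and none over the somatic-poor ones. The autophagy receptor Sqstm1 had 224 CPM in the knockout and 128 CPM in the control (0.82, 0.53 to 1.08), and 327 and 129 CPM over all cells, where 1 knockout cell held 68 of its 224 UMIs. Its relative Nbr1 had 71.6 CPM in the knockout and 110 CPM in the control (-0.60, -1.12 to -0.16), and 0.77 when thinned.

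**Figure D4:**
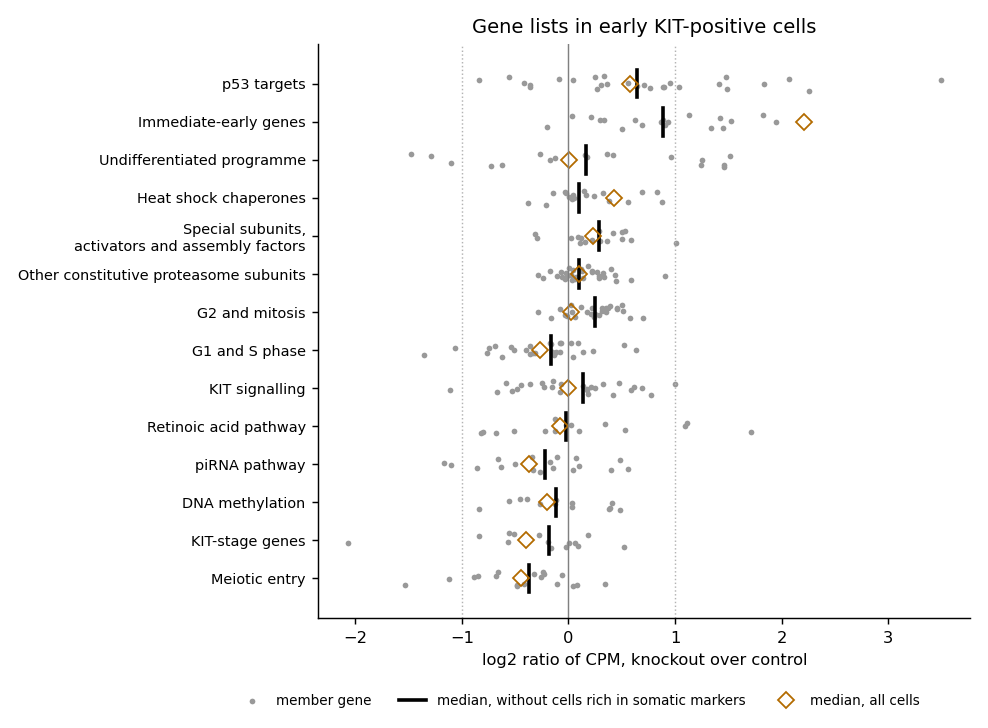
log2 ratio of CPM, knockout over control, for the measured members of 14 gene lists in somatic-poor cells (grey points), with the median over those cells (black bar) and over all cells (diamond). The p53 targets keep medians of 0.58 and 0.64 on the 2 sets, while the immediate-early genes stand at 2.21 over all cells and 0.89 without the somatic-rich ones.

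Targets of p53, the transcription factor that acts on stressed or damaged cells, had a median above that of all genes on both sets of cells. Of 29 members 28 were measured over all cells and 27 over the somatic-poor ones, and 8 were at least 2-fold higher on each. Without the knockout cell that held most of a gene's UMIs, 8 and 6 stayed past 2-fold. The medians were 0.58 and 0.64. Thinned to 5000 UMIs, where 14 members were measured on 53 UMIs in the knockout and 1580 UMIs in the control, the median was 0.026. Pmaip1, whose product NOXA promotes cell death, had 30 UMIs (55.1 CPM) in the knockout and 108 UMIs (11.6 CPM) in the control (2.26, 1.61 to 2.84), spread over 14 knockout cells. Eda2r, a receptor of the tumour necrosis factor receptor family, had 27 UMIs (49.6 CPM) in the knockout and 111 UMIs (11.97 CPM) in the control (2.07, 1.39 to 2.67). Ccng1, which encodes cyclin G1, had 69 UMIs (127 CPM) in the knockout and 425 UMIs (45.8 CPM) in the control (1.48, 1.08 to 1.84).

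The cell cycle inhibitor Cdkn1a had 8 UMIs (14.7 CPM) in somatic-poor knockout cells and 54 UMIs (5.82 CPM) in the control (1.41, 0.05 to 2.41), against 26.3 and 5.95 CPM over all cells. Plk2 had 56.9 CPM in the knockout and 16.2 CPM in the control (1.83, 1.21 to 2.38), and 0.99 over all cells, where 1 control cell held 81 of its 278 UMIs. The 2-fold higher genes were thus not the same on both sets, with Fas and Btg2 over all cells only and Plk2 and Polk over the somatic-poor ones only. Ano3, an anoctamin family member, was the highest of the list, with 21 UMIs in the knockout from 5 cells and 32 UMIs in the control (3.49, 2.61 to 4.32). Other members did not share the direction. The repair gene Ddb2 had 67.9 CPM in the knockout and 123 CPM in the control (-0.84, -1.37 to -0.38), and the death effector Bax had 198 and 256 CPM (-0.36, -0.66 to -0.09). Mdm2, the ubiquitin ligase of p53, had 125 CPM in the knockout and 106 CPM in the control, with an interval that spans 0.

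**Figure D5:**
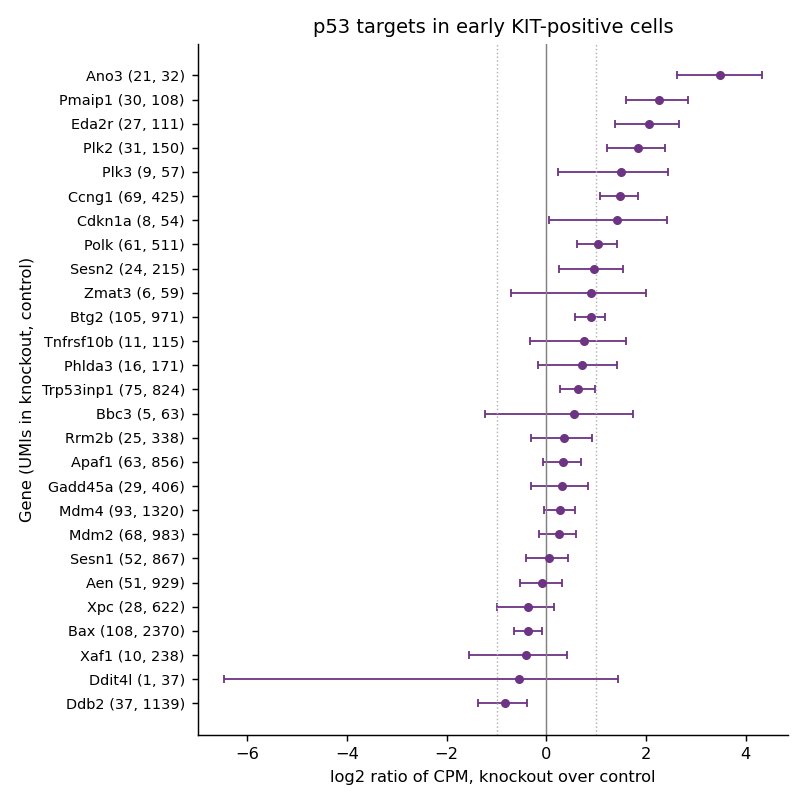
log2 ratio of CPM, knockout over control, of the 27 measured p53 targets in somatic-poor cells with exact 95% intervals; the UMIs in knockout and control stand beside each name and dotted lines mark 2-fold. The 8 genes beyond the right dotted line include Ano3 at 3.49 and Pmaip1 at 2.26, and Ddb2 is lowest at -0.84.

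The p53 targets followed different courses along the gates. Pmaip1 had 149 CPM in the knockout and 44.6 CPM in the control in GFRA1-positive cells, 119 and 31.7 CPM in progenitors, 55.1 and 11.6 CPM in early KIT-positive cells, and 27.9 and 12.4 CPM in late cells. Eda2r had 27.7 CPM in the knockout and 6.49 CPM in the control in GFRA1-positive cells, 25.2 and 9.14 CPM in progenitors, 49.6 and 11.97 CPM in early KIT-positive cells, and 53.5 and 4.38 CPM in late cells. In the knockout Ano3 had 4.50, 8.4, 38.6 and 23.3 CPM along the 4 gates and Plk2 30.4, 33.6, 56.9 and 51.2 CPM, both highest in early KIT-positive cells. In the control Ano3 had 7.62, 4.28, 3.45 and 3.89 CPM and Plk2 18.6, 19.4, 16.2 and 18.9 CPM. The summed list came to 1842, 2026, 1954 and 2031 CPM along the 4 gates in the knockout and to 1409, 1417, 1509 and 1539 CPM in the control. Trp53, which encodes p53 itself, had 69.8 CPM in the knockout and 77.7 CPM in the control in early KIT-positive cells.

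Promoters of the list are shown because several members were higher together, with Cdkn1a and Ccng1 past 2-fold and Mdm2 not, a choice made after their values were seen. Each window runs from 250 bases before to 50 bases after the RefSeq start on GRCm38.p6, written 5′ to 3′ along the gene. Capitals mark matches to the p53 decamer motif, and only windows with a match are printed. Cdkn1a is on the plus strand at chr17:29090729-29091028, Mdm2 on the minus strand at chr10:117710709-117711008 and Ccng1 on the minus strand at chr11:40755237-40755536.
Cdkn1a: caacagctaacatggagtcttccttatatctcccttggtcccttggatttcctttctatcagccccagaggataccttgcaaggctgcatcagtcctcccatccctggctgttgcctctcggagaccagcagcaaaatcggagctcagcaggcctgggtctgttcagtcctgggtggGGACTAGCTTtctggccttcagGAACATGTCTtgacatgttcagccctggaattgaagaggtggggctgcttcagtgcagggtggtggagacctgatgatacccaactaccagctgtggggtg
Mdm2: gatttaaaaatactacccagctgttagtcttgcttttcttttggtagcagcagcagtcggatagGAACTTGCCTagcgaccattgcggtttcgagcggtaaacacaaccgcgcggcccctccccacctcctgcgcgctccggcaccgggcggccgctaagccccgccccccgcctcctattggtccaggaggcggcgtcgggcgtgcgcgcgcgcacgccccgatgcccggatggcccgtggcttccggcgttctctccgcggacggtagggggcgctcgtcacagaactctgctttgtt
Ccng1: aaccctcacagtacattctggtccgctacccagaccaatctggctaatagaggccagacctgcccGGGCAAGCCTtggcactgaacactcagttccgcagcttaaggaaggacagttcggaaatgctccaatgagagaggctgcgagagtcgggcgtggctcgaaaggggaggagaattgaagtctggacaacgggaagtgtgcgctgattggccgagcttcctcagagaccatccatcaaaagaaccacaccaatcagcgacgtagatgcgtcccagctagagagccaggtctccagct
Cdkn1a has 2 matches, and Mdm2 and Ccng1 have 1 each. Of the 21 listed p53 targets with a window, 10 (47.6%) had a match, and of all 27025 genes with one 2582 (9.55%) did. The motif was searched on both strands. A gene with several windows counted once, as matched if any of them held a match. The list was made of known p53 targets, so its share describes the list and not these cells. Of the genes at least 2-fold higher in somatic-poor cells that had a window, Ano3, Eda2r, Plk2 and Plk3 had no match. A match describes letters in the window and does not show binding.

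Death and stress genes beyond the p53 list gave smaller or less even differences. BCL2 family and caspase genes had medians of -0.01 and 0.16, with none at least 2-fold higher on either set of cells. Bcl2l11, which encodes BIM, had 101 CPM in the knockout and 95.1 CPM in the control, and the survival factor Mcl1 had 108 and 96.6 CPM, both with intervals that span 0. Over all cells Mcl1 stood at 0.41, with an interval above 0. Integrated stress and unfolded protein response genes had 3 of 23 measured members at least 2-fold higher on both sets, with medians of 0.24 and 0.07. Ppp1r15a, which encodes the stress phosphatase subunit GADD34, had 103 CPM in the knockout and 44.3 CPM in the control (1.23, 0.78 to 1.62). The stress factors Ddit3 and Atf3 were the other 2, with 15 and 7 UMIs in the knockout against 130 and 44 UMIs in the control. The chaperone Hspa5 of the endoplasmic reticulum had 193 CPM in the knockout and 208 CPM in the control, and 266 and 219 CPM over all cells. Antioxidant genes had medians of 0.28 and 0.18, with Txnrd1 at 123 CPM in the knockout and 63.7 CPM in the control (0.96, 0.56 to 1.32) and Sod2 at 105 and 174 CPM (-0.72, -1.14 to -0.35, and 0.24 when thinned).

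The 2-fold differences of heat shock genes depended on the somatic-rich cells, while those of immediate-early genes did so only in part. Of 19 heat shock genes 6 were at least 2-fold higher over all cells and none of 18 over the somatic-poor ones, with medians of 0.43 and 0.10. Hspb1 had 68 UMIs in the knockout, 60 of them in 1 cell, and 130 UMIs in the control, a ratio of 2.95 over all cells and 0.00 in somatic-poor cells. Of 21 immediate-early genes 18 were at least 2-fold higher over all cells and 7 of 19 over the somatic-poor ones, with medians of 2.21 and 0.89. In somatic-poor cells Egr1 had 123 CPM in the knockout and 46.0 CPM in the control (1.43, 1.02 to 1.79), Junb had 79.0 and 29.1 CPM (1.45, 0.94 to 1.91), and Fosb had 18.4 and 22.1 CPM with an interval that spans 0. Their summed level per cell had a median of 14.9 per 10000 UMIs in the knockout and 8.55 in the control, and the ranges overlapped, with a highest cell of 52.2 in the knockout and 62.4 in the control. The immediate-early list was also higher in the knockout in GFRA1-positive cells, at 1755 CPM against 1167 CPM in the control. Progenitors had 1952 CPM in the knockout and 1176 CPM in the control, and late cells 1798 and 791 CPM, so the difference was not particular to early KIT-positive cells.

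Over all genes, the 12 highest by the near end of the interval came from few cells. Among somatic-poor cells 11 of the 12 had at least 50% of their knockout UMIs in 1 cell. Without each gene's top cell, Hist1h2be, Adam32, Pde6c and Samsn1 stayed at least 2-fold higher, at 3.04, 2.54, 2.14 and 1.80. The homeobox gene Nkx6-3 led, with 43 UMIs in the knockout, all in 1 cell, and 2 UMIs in the control. Adam32, of a family of sperm surface proteins, had 39 of 47 UMIs in 1 knockout cell, and the hexokinase-like gene Hkdc1 had 46 of 47. The mitochondrial carbonic anhydrase gene Car5a had all 35 of its UMIs in 1 cell. Hist1h2be, a core histone gene, was the most evenly spread, with 41 UMIs over 9 knockout cells and 56 UMIs in the control, at 3.65 (3.02 to 4.25) and 3.04 without its top cell. Its reads may be shared with near-identical histone copies. The same cell, of 49837 UMIs, held most UMIs for 3 of the 12. Over all cells the ranking shared 7 of 12 genes with this one and also held the Leydig genes Cyp17a1 and Lhcgr.

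The 12 lowest rested on more cells, and 7 of them were the same on both sets. Psma7 came first among somatic-poor cells. Sorcs3, a sorting receptor, had no UMI in the knockout and 206 UMIs in the control, at least 4.03-fold lower when 3 counts over the group are taken as the floor. Ebf3, a transcription factor of the EBF family, had 20 UMIs (36.7 CPM) in the knockout and 1328 UMIs (143 CPM) in the control (-1.93, -2.68 to -1.33). Cacna2d3, an auxiliary calcium channel subunit, had 49.6 CPM in the knockout and 150 CPM in the control (-1.57, -2.21 to -1.05). The receptor phosphatase gene Ptprm had 1 UMI in the knockout and 204 UMIs in the control, and Ly6k, a germ cell surface protein needed for male fertility, had 2 and 264 UMIs. With free RNA at 10% of UMIs subtracted Ly6k stood at 0.35 over all cells. Gatm of creatine synthesis and Fhit each had 5 UMIs in the knockout and 354 UMIs in the control, but over all cells Fhit stood at -0.06, with 18 of 26 knockout UMIs in 1 cell. Along the gates Ebf3 had 12.5, 32.2, 36.7 and 44.2 CPM in the knockout and 33.9, 56.8, 143 and 116 CPM in the control, and Sorcs3 had 5.88 CPM in the knockout and 30.8 CPM in the control in GFRA1-positive cells.

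The cells varied among themselves on both sides. In somatic-poor cells the summed p53 targets had quartiles of 13.0 and 25.5 per 10000 UMIs in the knockout, around a median of 15.8, and of 12.1 and 17.6 in the control, around a median of 14.5. The knockout's range of 6.64 to 32.3 lay within the control's range of 2.87 to 36.4. Meiotic entry genes had medians of 18.6 per 10000 UMIs in the knockout and 20.8 in the control, and G2 and mitosis genes 37.7 and 29.3. Constitutive proteasome subunits had medians of 56.9 and 54.2 with wide overlap. Undifferentiated genes had medians of 8.13 in the knockout and 7.21 in the control, with upper quartiles of 16.6 and 9.71.

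The Kit threshold fell among cells of mixed content. Just inside it, with 2 Kit UMIs, were 9 knockout cells and 137 control cells, and just outside, with 1, were 21 knockout cells and 194 control cells. Rims1 had 241 CPM in the knockout and 189 CPM in the control just inside, and 116 and 117 CPM just outside. Psma7 had 66.8 CPM in the knockout and 226 CPM in the control just inside, and 77.0 and 221 CPM just outside. The cells with more Kit UMIs were deeper, with medians of 25400.5 UMIs in the knockout and 20291 UMIs in the control at 3 or more Kit UMIs.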

How the data were processed

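Whole testis was profiled by single-cell RNA-seq in 1 library for each genotype. The authors deposited unfiltered count matrices of UMIs. Per the file headers they came from Cell Ranger 7.1.0, and the labels name mm10 as the build. They hold 112746953 UMIs in the knockout and 146528736 in the control over 32285 genes. Counting options beyond these are not given in the sources used here.

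Cells and gates were set from raw counts. Counts were summed over the cells of a gate and divided by the library's UMIs in that gate (CPM). The log2 ratio used a pseudocount of 0.5 UMIs, with an exact conditional Poisson interval of 95%. Where a gene has fewer UMIs in the knockout than in the control, the pseudocount shifts its ratio towards the knockout. That shift is largest at few UMIs, and the 2-fold counts use these ratios. Ratios of cell numbers used the exact conditional interval of an odds ratio, and shares a Clopper-Pearson interval. With 1 library for each genotype no test was made.

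Named genes were Psma7, the 5 given markers, the genes of the rule, the 2 highest and 2 lowest measured members of each of 24 lists, and the 12 highest and 12 lowest of all genes by the end of the interval nearest to 0, if the higher library had at least 20 CPM from at least 30 UMIs. That ranking left out unnamed, haemoglobin, ribosomal protein and mitochondrial genes and any whose count free RNA could supply. Further list members were named after their values were seen. Some genes of the lists are not reported here by name. The members and lists were chosen with earlier results of these data known. Of 459 list genes 456 were found.

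Doublets were kept, and leaving out those marked by Scrublet (scanpy 1.11.5) was an alternative; its automatic threshold marked almost no knockout cell, so the control's was used for both. Free RNA, profiled from barcodes of 10 to 100 UMIs, made up at most 9.54% of the UMIs of early KIT-positive cells in the knockout and 10.1% in the control. Promoter sequences are from RefSeq on GRCm38.p6 and gene coordinates from GENCODE M21. Python 3.11.15, scipy 1.17.1 and pandas 2.3.3 were used, and the ratio and interval code was tested on simulated data.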

Additional observations from a re-analysis of the deposited data

How the results depend on the processing

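The 14 alternatives were planned, and leaving out, gene by gene, the knockout cell with most of its UMIs was added after seeing the data. No paired analysis was possible because each genotype has 1 library. Over the settings, early KIT-positive cells per 100 Sertoli cells stayed lower in the knockout, at log2 -5.11 to -4.37 (-4.37 with at most 10% mitochondrial UMIs), as did Psma7 at -2.64 to -1.42, and the constitutive proteasome median ranged from 0.04 to 0.22.

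The share of cells was 0.460% in the knockout and 6.17% in the control with at least 1 Kit UMI, and 0.137% and 2.65% when thinned; in the control it was 3.22% with at least 3 Kit UMIs and 3.70% with at most 10% mitochondrial UMIs. Thinning gave Psma7 -1.42, 1167 genes at least 2-fold lower, and medians of 0.023 for KIT-stage, 0.27 for G2 and mitosis, 0.026 for p53 and 1.37 for immediate-early genes. It rests on 8 knockout cells and 40000 UMIs. Without somatic-rich cells the medians were 0.25 for G2 and mitosis and 0.89 for immediate-early genes, and immediate-early genes stood at 1.45 without Scrublet doublets. With 10% free RNA subtracted meiotic entry had a median of -0.27 and immediate-early genes 2.73, and with measured free RNA -0.28 and 2.76. Genes at least 2-fold higher and lower numbered 558 and 271 with at least 100 UMIs per gene, and 6852 and 1181 with at least 1. At the limit of 1 UMI the pseudocount can place a gene with no knockout UMI among the higher ones. The 6852 is thus not a number of raised genes. The number of genes measured differs with the limit, and its shares are not given here.

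Some genes changed sign. Hormad1 stood at -1.15 with at most 10% mitochondrial UMIs, -0.85 without somatic-rich cells, -0.75 thinned and -0.98 without its top cell. Acta2 stood at 0.65 and Tagln at 0.20 with at least 1 Kit UMI, and without somatic-rich cells Acta2 stood at 0.56, Cdh5 at 0.18 and Spry2 at -0.36. The sign of Cdh5 comes from the pseudocount, since 2 UMIs (3.67 CPM) in the knockout lie below 3.99 CPM in the control. Thinned, Birc5 stood at 0.057, Crabp1 at 0.043, Dnmt3b at 0.25, Nbr1 at 0.77, Reln at 0.0033, Sod2 at 0.24 and Stra8 at 0.40. For Birc5, Crabp1 and Reln, which lie near 0, the pseudocount on 40000 knockout UMIs can alone set the sign. Ly6k stood at 0.35 and 0.49 with 10% and measured free RNA subtracted. Without their top cell Aatk stood at -1.37, Car5a at -2.27, Hkdc1 at -0.64 and Lum at -1.90. The cause was not tested for any of these. The 29 knockout cells limit the depth of every ratio.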
